A study of Mus musculus with 30 samples.

Results

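New crotonylation peaks were the 7458 regions, of 23301 in the crotonate list (32%), that carried crotonylated lysine (Kcr) on histones after crotonate and overlapped neither a Kcr peak nor an acetylated lysine (Kac) peak of the control cells by even 1 bp. The remaining crotonate peaks served for comparison: 12097 lay on a control Kcr peak and 3746 lay on a control Kac peak without control Kcr. The cells were neural stem and progenitor cells (NSPCs) grown with EGF and FGF from the forebrain of C57BL/6 mouse embryos at E13.5, passage P1-P3, and kept for 24 h in DMSO (control), 10 mM crotonate or 1 µM MS-275. NSPC RNA was sequenced in 4 biological replicates per treatment, and pan-Kcr and pan-Kac chromatin immunoprecipitation (ChIP) in 1 library per antibody and treatment. Untreated C57BL/6 forebrain gave 1 library each for H3K9ac, H3K9cr and RNA, and forebrain explants of the ICR strain gave 3 control and 3 crotonate RNA libraries, whose dose and duration the labels do not give. Since each NSPC peak list rests on 1 library and gives positions without heights, membership has no replicate check, and the shares of peaks below are descriptions without a test.

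Crotonylation attaches a crotonyl group, taken from crotonyl-CoA, to the same histone lysines that can be acetylated. Acyltransferases such as p300 and CBP write both marks, class I histone deacetylases remove both, and both are found mainly at active promoters and enhancers. Crotonate is a short-chain fatty acid that cells convert to crotonyl-CoA. MS-275 inhibits class I histone deacetylases.

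The DNA under new peaks at gene starts is shown for 6 genes whose RNA is described below: Mgarp, Rtn4rl2, Emilin2 and Ucp2, whose RNA was higher with crotonate, Kif26a, which had one of the widest new peaks, and Fanca, whose RNA was lower. Each line is a RefSeq promoter window on GRCm38.p6 from 250 bases before to 50 bases after an annotated gene start, 5′ to 3′ on the strand of the gene, and the capitals mark the bases covered by a new Kcr peak. The windows are chr3:51396498-51396797 (minus strand) for Mgarp, chr2:84886643-84886942 (minus) for Rtn4rl2, chr17:71310962-71311261 (minus) for Emilin2, chr7:100493108-100493407 (plus) for Ucp2, chr12:112145958-112146257 (plus) for Kif26a and chr8:123318527-123318826 (minus) for Fanca.
Mgarp: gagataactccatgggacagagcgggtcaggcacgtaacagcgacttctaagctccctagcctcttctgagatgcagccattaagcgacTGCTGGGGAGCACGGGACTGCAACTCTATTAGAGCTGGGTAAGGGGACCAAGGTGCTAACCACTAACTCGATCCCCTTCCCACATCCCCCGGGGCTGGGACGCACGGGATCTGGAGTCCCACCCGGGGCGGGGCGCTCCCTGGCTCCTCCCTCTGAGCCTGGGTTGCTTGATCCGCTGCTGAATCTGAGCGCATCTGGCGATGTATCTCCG
Rtn4rl2: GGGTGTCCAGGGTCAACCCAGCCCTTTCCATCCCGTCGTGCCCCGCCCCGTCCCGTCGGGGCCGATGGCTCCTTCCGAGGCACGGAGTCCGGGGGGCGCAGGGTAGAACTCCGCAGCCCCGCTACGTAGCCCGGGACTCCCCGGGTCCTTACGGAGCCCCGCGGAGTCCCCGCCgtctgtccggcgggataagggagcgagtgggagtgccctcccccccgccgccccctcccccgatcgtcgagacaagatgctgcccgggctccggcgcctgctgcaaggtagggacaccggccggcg
Emilin2: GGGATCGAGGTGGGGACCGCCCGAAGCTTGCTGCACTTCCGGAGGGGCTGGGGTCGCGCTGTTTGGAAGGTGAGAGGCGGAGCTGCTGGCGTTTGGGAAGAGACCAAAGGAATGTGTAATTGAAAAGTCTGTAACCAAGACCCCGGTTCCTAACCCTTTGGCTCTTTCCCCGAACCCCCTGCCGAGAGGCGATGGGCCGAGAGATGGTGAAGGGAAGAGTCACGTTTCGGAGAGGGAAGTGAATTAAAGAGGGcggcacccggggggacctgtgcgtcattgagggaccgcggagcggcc
Ucp2: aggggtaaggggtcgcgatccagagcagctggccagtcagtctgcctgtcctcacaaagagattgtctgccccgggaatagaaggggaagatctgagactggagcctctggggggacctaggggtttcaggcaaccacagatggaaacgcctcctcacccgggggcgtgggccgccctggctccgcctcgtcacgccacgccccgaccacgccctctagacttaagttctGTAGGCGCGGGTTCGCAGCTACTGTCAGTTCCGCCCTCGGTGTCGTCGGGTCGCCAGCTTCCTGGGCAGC
Kif26a: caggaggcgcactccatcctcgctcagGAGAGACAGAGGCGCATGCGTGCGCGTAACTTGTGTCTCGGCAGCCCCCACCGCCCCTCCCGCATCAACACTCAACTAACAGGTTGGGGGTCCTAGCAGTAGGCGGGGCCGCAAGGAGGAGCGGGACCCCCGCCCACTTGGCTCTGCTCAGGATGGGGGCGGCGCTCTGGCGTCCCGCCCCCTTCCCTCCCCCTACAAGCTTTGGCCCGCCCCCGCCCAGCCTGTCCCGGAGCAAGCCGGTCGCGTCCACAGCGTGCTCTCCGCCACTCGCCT
Fanca: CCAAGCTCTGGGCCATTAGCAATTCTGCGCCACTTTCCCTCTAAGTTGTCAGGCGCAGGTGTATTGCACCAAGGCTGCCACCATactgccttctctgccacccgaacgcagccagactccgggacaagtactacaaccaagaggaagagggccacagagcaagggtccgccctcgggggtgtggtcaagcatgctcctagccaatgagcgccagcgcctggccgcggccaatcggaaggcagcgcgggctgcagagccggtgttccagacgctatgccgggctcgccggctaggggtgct
The peak covered 211 of 300 bases in the Mgarp window, including the annotated start, and 273 in the Kif26a window. It covered 174 bases at Rtn4rl2, at the upstream end of the window, and 253 at Emilin2. At Ucp2 only the last 70 bases were covered, so that this peak began just before the start and ran into the gene. At Fanca the covered 84 bases lay at the upstream end. All 6 windows were rich in G and C, from 60.7% in Mgarp to 74% in Rtn4rl2, and all held the GC box letters GGGCGG on one strand or the other. This holds for the windows shown. Among other named genes, windows of Asb4 (42.3% GC), Aldoc (53.3%) and Hif3a (63.7%) lacked GGGCGG. Emilin2 alone of the 6 held the ETS letters CCGGAAG, and Fanca alone held CCAAT.

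New peaks were narrow. Their median width was 228 bp (quartiles 191 and 300 bp, range 175 to 1101 bp), against 259 bp for peaks on control Kac alone and 323 bp for peaks on control Kcr. Only 314 new peaks (4.21%) were at least 500 bp wide, against 7.58% and 19.9%. The gap to the nearest control Kcr or Kac peak varied widely. A gap under 1 kb was found for 2988 new peaks (40.1%), among them 1272 (17.1%) at less than 200 bp; these stood beside a region that the control lists already held. A gap of at least 5 kb was found for 3825 (51.3%), and of at least 100 kb for 988 (13.2%), with a median over all new peaks of 6219.5 bp. The rule used these positions, and the gap is given as a description. At the border of the rule, only 3 peaks on each side were looked up. The 3 new peaks touched a control peak without sharing a base, among them one in Dlgap3, a gene of the postsynaptic scaffold (chr4:127168006-127168452). The 3 peaks outside shared 1 base with a control peak, among them peaks at Kif21b and H2bc6. The totals of such peaks were not counted. New peaks under 50 bp from a control peak numbered 228. In the other direction, 3193 of the 17669 control Kcr peaks (18.1%) overlapped no crotonate Kcr or Kac peak, so that the lists differed in both directions.

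The new peaks lay less often at gene starts than the other crotonate Kcr peaks. Of the 5917 that could be placed, 2815 (47.6%) were within 1 kb of a RefSeq start, 1854 (31.3%) in a gene body and 1248 (21.1%) away from genes. The matching shares were 61.1%, 22.9% and 15.9% for peaks on control Kac alone and 75.6%, 15.8% and 8.58% for peaks on control Kcr. The other 1541 new peaks lay near genes without an entry in the table of starts, which held 17492 of 21900 protein-coding genes. The plot of peak distances takes the 3192 new peaks with a centre within 2 kb of a start. Of these, 52.5% had their centre 0 to 1000 bp downstream, 32.5% up to 1000 bp upstream and 15.1% between 1 and 2 kb away. Peaks on control Kcr within 2 kb of a start had 66.3%, 27.7% and 5.99%. The new share of crotonate Kcr peaks ran from 30.2% on chromosomes 3 and 9 to 35.3% on 15 among autosomes and was 41.7% on X, which held 35 new peaks.

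**Figure D1:**
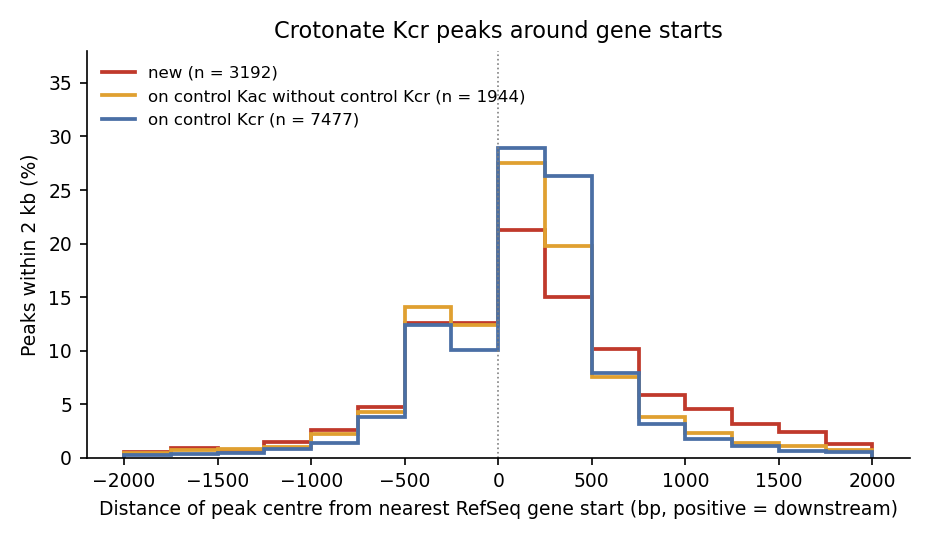
Percentage of crotonate Kcr peaks (y axis, of the peaks within 2 kb of a RefSeq gene start) by the distance of the peak centre from the start in bins of 250 bp (x axis, bp), for new peaks and the other classes of crotonate Kcr peaks. All 3 classes are highest just downstream of the start, and the new peaks have the most beyond 1 kb (15.1% against 8.44% and 5.99%).

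The promoter windows under new peaks were CpG-rich, though less so than windows under kept peaks. The 1229 windows that overlapped a new peak and no other crotonate Kcr peak had a median GC content of 63% and 20 CpG dinucleotides, against 65% and 26 for the 3927 windows with a peak on control Kcr alone, 50.7% and 5 for the 26618 windows without crotonate Kcr, and 52.7% and 7 for all 32851. Strings were searched on both strands, and none of the 9 contains another. GGGCGG stood in 65.4% of the new windows, 68.9% of the kept ones and 35.7% of all. The ETS letters CCGGAAG stood in 7.73%, 19.7% and 8.86%, and the NRF1 motif, searched as 1 exact string, in 0.407%, 2.39% and 0.971%. CAGCTG, an E-box, stood in 18.6%, 14.6% and 16.3%, TGANTCA, the AP-1 letters, in 5.13%, 3.34% and 7.81%, and TATAAA in 5.86%, 4.3% and 13.6%. CCAAT stood in 29.6%, 28.9% and 37.4%, CACGTG in 8.95%, 9.65% and 7.15%, and TGACGTCA, the cyclic AMP response element, in 2.52%, 3.79% and 1.79%. The new windows held the GC box about as often as the kept windows, and the ETS letters less often than these. A match describes the letters and does not show that a factor binds.

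The 5 peak lists that the rule did not use show how far other marks and tissues held the same places. A crotonate Kac peak overlapped 2589 new peaks (34.7%), a Kcr peak of MS-275 cells 671 (9%) and a Kac peak of MS-275 cells 789 (10.6%). The forebrain H3K9ac list overlapped 3579 (48%) and the forebrain H3K9cr list 1896 (25.4%). None of these 5 lists held 2421 new peaks (32.5%), and all 5 held 39 (0.523%). All shares were lower than for the other classes: peaks on control Kac alone had 57.7%, 13.7%, 15.7%, 70% and 49.1% in the same order, and peaks on control Kcr 80.1%, 21.5%, 27.1%, 84.6% and 72%. The share with crotonate Kac is tied to the rule, since the classes were split by Kac in the control cells. The MS-275 lists are much shorter (5845 Kcr and 7555 Kac peaks, against 23301 and 21616 with crotonate), which limits the overlap they can have.

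**Figure D2:**
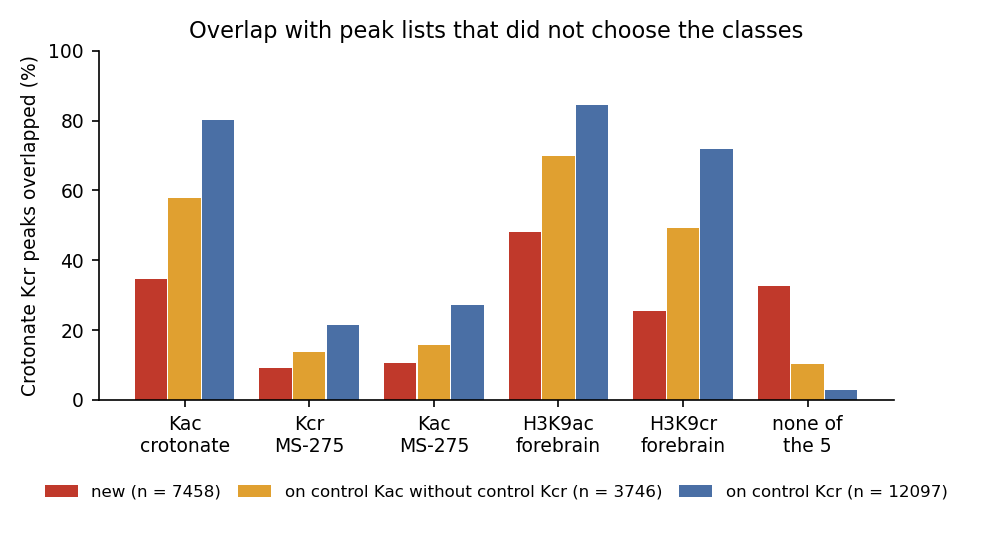
Percentage of crotonate Kcr peaks (y axis) overlapped by at least 1 bp in each of 5 other peak lists, and in none of them, for the 3 classes of crotonate Kcr peaks (bars, 1 library per list). New peaks have the lowest bar in each of the 5 lists and the highest in none of the 5 (32.5%).

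These shares varied with place and width. New peaks at gene starts lay in forebrain H3K9ac in 69.6% of cases and in H3K9cr in 40.6%, against 20.3% and 5.77% of those away from genes. For Kac of MS-275 cells the order was the opposite, with 9.52% at starts and 14.1% away from genes. New peaks of at least 500 bp had crotonate Kac in 72.6% of cases and none of the 5 lists in 6.05%, while those under 200 bp had 23.7% and 41.3%. A gap under 1 kb to a control peak went with 59.1% in forebrain H3K9ac, a larger gap with 40.5%. In the forebrain H3K9ac list, whose fold enrichment is the authors' value per peak, the peaks that met new Kcr and no other crotonate Kcr had a median of 7.26 over input, against 21.8 for those that met only peaks on control Kcr and 12.6 for all 16610 peaks.

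The 5 widest new peaks were chosen by width alone, and 4 of them lay at least 34293 bp from any control peak. The peak at Grik4, a kainate receptor subunit, covered 1101 bp (chr9:42943303-42944403) and was 290 bp from a control peak. The peak at Kif26a, an atypical kinesin, covered 1074 bp (chr12:112145985-112147058), lay 178962 bp from the nearest control peak and was held by all 5 other lists. Peaks of 1031 bp at Sntb1, a syntrophin of the dystrophin complex, 1027 bp at Cthrc1, a secreted collagen-repeat protein, and 1020 bp at Fhdc1, a formin, lay 348245, 34293 and 101545 bp from a control peak. RNA of 3 of these 5 genes was higher with crotonate, beside 48.2% of all tested genes at new peaks and 58.4% of those with new Kcr only. The 5 are thus not set apart from other genes at new peaks. Grik4 had 2.66, 2.75, 1.93 and 2.76 TPM in the controls and 8.31, 9.72, 9.33 and 7.42 with crotonate (log2 difference 1.46 ± 0.12, SE; limma adjusted p = 1.1e-06). Kif26a had 0.639, 0.652, 0.832 and 1.5 TPM in the controls and 3.19, 2.55, 2.97 and 2.29 with crotonate (0.99 ± 0.16, limma adjusted p = 2.2e-04). Only control replicate 4 of Kif26a reached 1 TPM, so the gene passed the filter with help of treated libraries, which favours a difference. Cthrc1 had 3.1, 1.12, 1.84 and 1.59 TPM against 5.47, 9.07, 7.21 and 7.14 (1.52 ± 0.20; limma adjusted p = 6.3e-05). In all 3 the groups did not overlap, which a passed test favours. The share of such genes among all tested genes was not counted, so this is no further result. Sntb1 (1.72 ± 0.482 and 2.41 ± 0.32 TPM, SD, n = 4; limma adjusted p = 0.0721, and 0.049 with the replicate number as a block) and Fhdc1 (0.50 ± 0.25; limma adjusted p = 0.12) did not pass the test. Fhdc1 was high in crotonate replicates 2 and 3 (3.81 and 3.64 TPM) and below the highest control in 1 and 4; without replicate 1 or 4 it was called higher (limma adjusted p = 0.0495 and 0.0239).

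The densest runs of new peaks within 100 kb held 9 to 11 of them. The run with 11 covered Speg, Gmppa, Asic4, Chpf and Tmem198 (chr1:75423345-75479932). Runs of 10 lay around Per1, Vamp2 and Aurkb (chr11:69035759-69134662), around Efna1, Efna3 and Muc1 (chr3:89226585-89323407), and in Gse1 (chr8:120421520-120509770). Another new peak stood within 1 kb of 24.3% of new peaks, and another crotonate Kcr peak of the other classes within 1 kb of 28.7%.

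RNA was compared through genes with a new peak within 1 kb of the gene body. These were 5637 RefSeq genes, 4199 of them protein-coding, at 6165 new peaks (82.7%). Of them 4818 stood in the TPM table and 3707 reached 1 TPM in no fewer than 4 NSPC libraries of 12 and were tested, while 1111 did not reach it. TPM is a level per transcript length scaled to the library total, and it carries no sequencing depth, which is unknown here. Genes were tested with limma on log2(TPM + 1) at a Benjamini-Hochberg adjusted p of 0.05 over all 14857 genes tested. Fold changes on this scale understate those of low genes. The replicates are biological per the series' description. The crotonate treatment has no vehicle of its own in the labels, so crotonate and the absence of DMSO cannot be told apart. Fewer cells of a type and less RNA per cell cannot be told apart in these bulk libraries either.

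Genes at new peaks were more often higher with crotonate than genes at large. Of the 3707, 1788 (48.2%) were higher and 430 (11.6%) lower than control, with a median log2 difference of 0.25; over the 13775 tested genes with a position 33.8% were higher and 16.7% lower, with a median of 0.09. Of the 1482 genes whose only crotonate Kcr was new, 866 (58.4%) were higher, 322 of these at least 2-fold on this scale, and 106 (7.15%) lower, with a median of 0.48. The 2225 genes with new and other Kcr peaks had 41.4% higher and 14.6% lower, the 6582 with other crotonate Kcr alone 25.3% and 21.2%, and the 3486 without crotonate Kcr 34.4% and 13.6%. Genes share libraries and are not replicates, so no test was made between these classes. With median-of-ratios scaling the median of all genes moved from 0.09 to -0.02 and the split of all genes to 25.8% higher and 28.3% lower, and genes with new Kcr only then had 53.6% higher and 12.6% lower, 0.41 above the median of all. With quantile normalization they had 38.3% higher and 13.8% lower, against 22.1% and 24.8% of all genes.

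**Figure D3:**
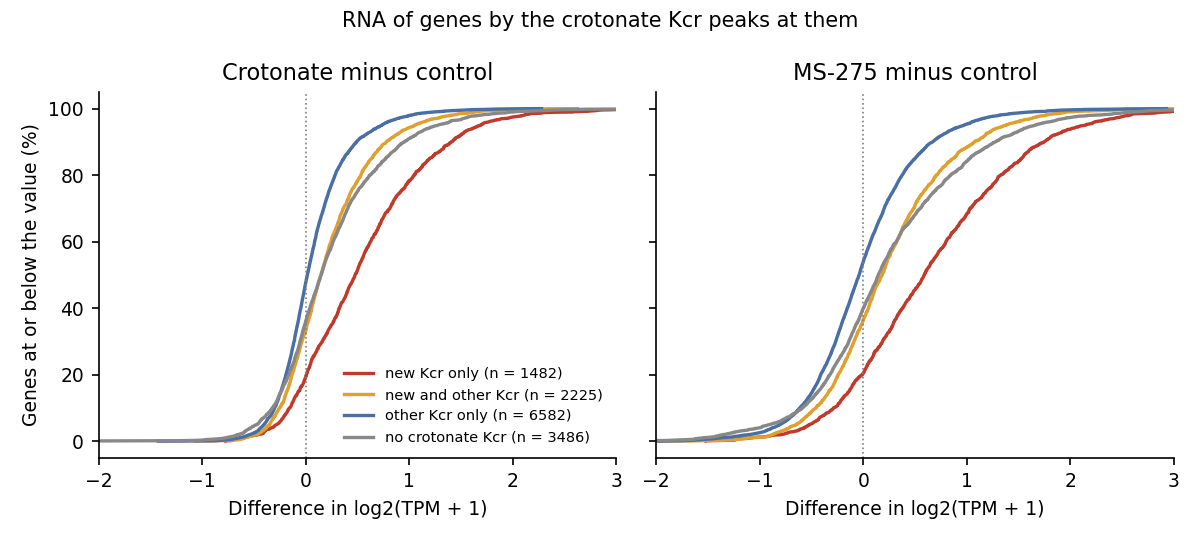
Cumulative percentage of tested genes (y axis) by the difference in log2(TPM + 1) (x axis) for crotonate (left) and MS-275 (right) against the same 4 control libraries, with genes grouped by the crotonate Kcr peaks within 1 kb of them. The line of genes with new Kcr only lies to the right of the others in both panels, with medians of 0.48 and 0.59.

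In MS-275 cells the same genes were compared with the same control libraries, so the values are given side by side. Of the 3707 genes at new peaks 53.8% were higher and 18.6% lower with MS-275, against 38.9% and 28.8% of all, and of the 1482 with new Kcr only 63.5% and 11.7%, with a median of 0.59 against 0.08. In the direct contrast of MS-275 with crotonate 27.3% of the genes at new peaks were higher with MS-275 and 21.8% lower, against 20.2% and 28.7% of all, and of those with new Kcr only 28.4% and 17.7%.

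These genes were low in control cells. The median over the genes with new Kcr only was 4.06 to 4.65 TPM in the 4 controls, 7.97 to 8.24 with crotonate, 8.56 to 9.01 with MS-275 and 7.38 in the forebrain, where the median over all tested genes was 18.6 to 19.5, 20.5 to 21, 19.7 to 20.3 and 22.8. Since low genes as a whole were called higher more often, the comparison was repeated within ranges of the control level, which were set after the data were seen. Below 1 TPM in control 77.9% of genes with new Kcr only were higher, against 60.9% of all; genes in this range could be tested only with help of at least 1 treated library, and this favours a difference. From 1 to 5 TPM the shares were 69.7% and 48.1%, from 5 to 20 TPM 50.1% and 38.5%, and from 20 TPM up 33% and 21.6%. With the genes that had at least 1 TPM in every control, an alternative also added after seeing the data, 52.2% of the genes with new Kcr only were higher and 10.1% lower, against 31.2% and 19.1% of all.

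**Figure D4:**
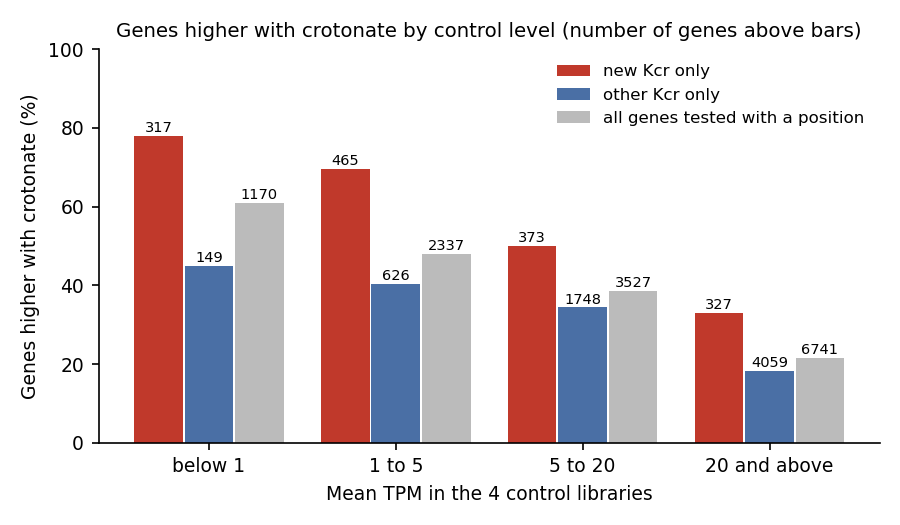
Percentage of tested genes called higher with crotonate (y axis) in 4 ranges of the mean control TPM (x axis), for genes with new Kcr only, genes with other crotonate Kcr only and all tested genes with a position, with the number of genes above each bar. The bar of genes with new Kcr only is the tallest in each range, from 77.9% below 1 TPM to 33% at 20 TPM and above.

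The share of genes that were higher varied with the kind of new peak. Among genes with new Kcr only, 70.6% of the 684 with a crotonate Kac peak on a new peak were higher and 3.51% lower, against 48% and 10.3% of the 798 without. Of the 276 with an MS-275 Kcr or Kac peak on a new peak 69.6% were higher. One new peak went with 54.1%, 2 with 67.5% and 3 or more with 74.8% (103 genes). A new peak at least 1 kb from every control peak went with 65.3% of 1179 genes. By position, 58.7% of the 1000 genes with a new peak within 1 kb of their start were higher, and 51% of the 151 with new peaks elsewhere alone. Gene length differed between the classes, with medians of 26.4 kb for new Kcr only, 40.4 kb for new and other, 23.1 kb for other only, 15.4 kb for none and 22.7 kb for all, and its part in these shares was not tested.

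The 10 genes with the largest rise, by a rule that took only genes whose 4 crotonate libraries lay above all controls, all had new Kcr and no other crotonate Kcr. This held for 40% of all tested genes at new peaks, and for 322 of the 448 that were higher at least 2-fold on this scale. Tpm2, a beta-tropomyosin of the actin cytoskeleton, had 3 new peaks around its start on chromosome 4. It had 1.91, 2.21, 2.76 and 3.5 TPM in the controls and 30.6, 31.5, 32.1 and 30.4 TPM with crotonate (log2 difference 3.18 ± 0.12, limma adjusted p = 5.1e-09), and 33.8 to 42.6 TPM with MS-275. Rtn4rl2, a membrane-anchored homologue of the Nogo receptor, had 3 new peaks, all with crotonate Kac and forebrain H3K9ac, the first of 660 bp at chr2:84886769-84887428. Its level was 2.37, 1.45, 2.13 and 3.48 TPM in the controls and 25.4, 31.5, 27.4 and 22.7 TPM with crotonate (3.07 ± 0.15, limma adjusted p = 2.5e-08). With MS-275 it was 22.2 to 26.5 TPM, overlapping the crotonate range.

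Mgarp, a mitochondrial protein, had 1 new peak over its start (chr3:51396247-51396708). It had 0.441, 1.06, 1.36 and 2.48 TPM in the controls, 14.3, 15.9, 16.4 and 18.3 with crotonate (2.95 ± 0.20, limma adjusted p = 2.9e-07) and 38.2, 43.6, 46.1 and 36.3 with MS-275, where it was higher than with crotonate (1.28 ± 0.20, limma adjusted p = 2.6e-04). Emilin2, a glycoprotein of the extracellular matrix, had 2 new peaks at its start and went the other way between treatments: 1.02 ± 0.203 TPM in the controls, 13.6 ± 2.8 with crotonate and 6.98 ± 2.61 with MS-275 (SD, n = 4), which was lower than with crotonate (-0.92 ± 0.22, limma adjusted p = 0.00507). Ly6h, a membrane-anchored protein of neurons that acts on nicotinic receptors, had 3 new peaks inside the gene, all with crotonate Kac and both forebrain marks. It rose from 1.57 ± 0.461 to 16.8 ± 0.687 TPM with crotonate and to 9.7 ± 2.17 with MS-275 (SD, n = 4; MS-275 against crotonate -0.76 ± 0.15, limma adjusted p = 0.0015).

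Among the others were Lbhd2 (log2 difference 3.18), the sodium-activated potassium channel Kcnt1 (3.03), the amino acid transporter Slc7a10 (2.86) and Rcn3, a calcium-binding protein of the endoplasmic reticulum (2.81), with limma adjusted p between 2.9e-08 and 9.7e-07. Their levels were below 6 TPM in every control and between 9.77 TPM, in Slc7a10, and 45.1 TPM, in Rcn3, in the crotonate libraries. These 4 were also higher with MS-275 than in control. Slc7a10 reached 1 TPM in control replicate 1 alone, so it passed the filter with help of treated libraries.

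The 10 genes with the largest fall moved less, from -0.84 to -0.70 on the log2 scale. Fanca, of the Fanconi anaemia DNA repair complex, had 1 new peak of 187 bp (chr8:123318743-123318929), at the upstream end of its promoter window, held in forebrain H3K9ac. It fell from 31.5, 35.9, 32.7 and 27.2 TPM to 17.4, 19.8, 17.7 and 20.3 TPM with crotonate (-0.73 ± 0.10, limma adjusted p = 7.2e-05) and to 11.9 to 15.9 TPM with MS-275. Setd1b, an H3K4 methyltransferase, fell from 8.12 ± 0.206 to 4.64 ± 0.295 TPM (SD, n = 4; -0.70 ± 0.07, limma adjusted p = 7.5e-06) beside 1 new and 3 other Kcr peaks. The other 8 included 4 enzymes of metabolism: Gcat of threonine breakdown, Rpia of the pentose phosphate pathway, Mthfd2 of mitochondrial folate metabolism and the glycolytic Aldoc. Cars, a cysteinyl-tRNA synthetase, Rbm19, a nucleolar RNA-binding protein, Pprc1, a coactivator of mitochondrial genes, and Cdc42ep1, a Cdc42 effector, completed the 10. Of the 10, 5 had new Kcr only, against 40% of all tested genes at new peaks. No new peak with crotonate Kac was found at 7, and at 2173 of all 3707 tested genes at new peaks. Both counts are near these shares and do not set the 10 apart. Aldoc had overlapping libraries between control and MS-275 (45.6 to 80.8 TPM with MS-275, 51.3 to 90.8 in control) and did not pass that test (-0.17, limma adjusted p = 0.47), but did with the replicate number as a block (limma adjusted p = 0.00646).

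**Figure D5:**
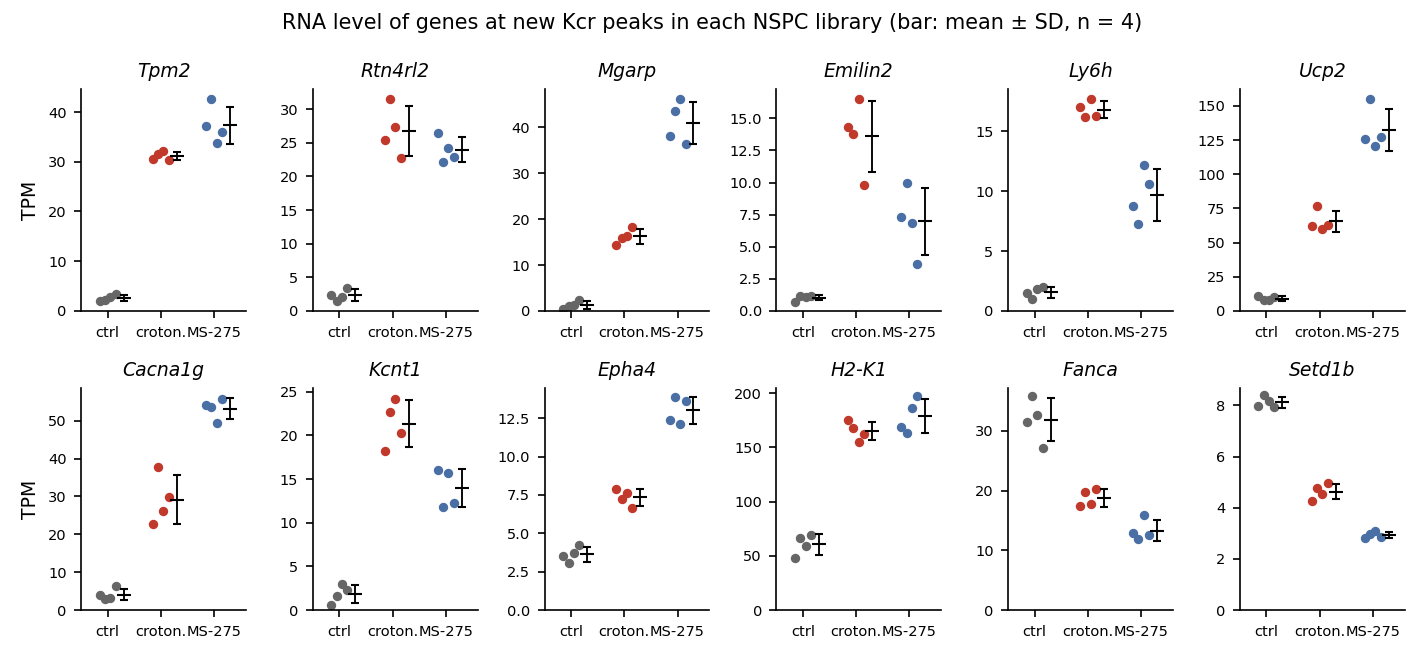
RNA level (y axis, TPM, from 0) of 12 genes at new Kcr peaks in each of the 4 control, crotonate and MS-275 libraries (points), with mean and SD beside them. In the first 10 panels every crotonate library lies above every control, and in Fanca and Setd1b below. The rule that chose Tpm2, Rtn4rl2, Mgarp, Emilin2, Ly6h, Kcnt1, Fanca and Setd1b required this, so it is no result for them. Ucp2, Cacna1g, Epha4 and H2-K1 were chosen from their lists by the smallest limma p. That favours such a separation, so it is no result for these genes either.

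Of the gene lists, axon guidance had the highest share at new peaks. Of its 27 tested genes 19 (70.4%) had a new peak, against 26.9% of all tested genes with a position; these genes are long, with a median of 177 kb, and the part of length was not tested. Of the 19, 14 were higher with crotonate and none lower, with a median of 0.53, and of all 27 members 18 were higher and none lower, with a median of 0.44. Of the 14, Epha7 had 0.669 ± 0.187 TPM in the controls (SD, n = 4), so it passed the filter through treated libraries alone. Of all 14857 genes tested 32.3% were higher and 15.9% lower. Robo1, a receptor for Slit repellents, had 2 new peaks at an annotated start, 44 and 492 bp from a control peak. It rose from 4.73, 4.34, 4.13 and 4.54 TPM to 14.6, 14.1, 13.9 and 12.8 TPM with crotonate (1.45 ± 0.07, limma adjusted p = 2.6e-08) and to 16 ± 1.34 TPM with MS-275 (SD, n = 4). Epha4, an ephrin receptor, had 4 new peaks with centres 356 to 2286 bp downstream of its start, all with both forebrain marks. It rose from 3.51, 3.04, 3.75 and 4.23 TPM to 7.87, 7.23, 7.62 and 6.63 TPM with crotonate (0.85 ± 0.09, limma adjusted p = 1.0e-05) and further, to 12.1 to 13.9 TPM, with MS-275 (against crotonate 0.75 ± 0.09, limma adjusted p = 3.1e-05). The netrin receptors Dcc, Unc5a and Unc5b, the semaphorins Sema3f and Sema5a, and Ephb1, with 5 new peaks, were among the other members at new peaks. The 5 members at new peaks that were not called had log2 differences from -0.07 to 0.17.

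Synapse and excitability genes had 15 of 37 tested members at new peaks (40.5%), 12 of them higher and none lower, with a median of 0.44. Of all 37 members 30 were higher and none lower, with a median of 0.68, so the count at new peaks is near that of the whole list. Cacna1g, a T-type calcium channel, had 2 new peaks (chr11:94473267-94473498 and chr11:94473657-94474061), both with both forebrain marks. It rose from 4, 2.97, 3.19 and 6.25 TPM to 22.7, 37.8, 26.2 and 29.9 TPM with crotonate (2.58 ± 0.18, limma adjusted p = 3.1e-07) and to 49.3 to 55.7 TPM with MS-275. Kcnt1 rose from 0.555, 1.63, 3.03 and 2.29 TPM to 18.2, 22.7, 24.2 and 20.3 TPM (3.03 ± 0.23, limma adjusted p = 7.4e-07). In both genes every crotonate library lay above the highest control. For Kcnt1 this was required by the rule for the largest rises. Cacna1g was chosen from its list by its small limma p, which favours such a separation. The separation is thus no result for either gene. Cplx2, which regulates vesicle fusion, rose with crotonate (0.28 ± 0.10, limma adjusted p = 0.0376) and fell with MS-275 (-1.61 ± 0.10, limma adjusted p = 3.8e-08). Neuronal differentiation genes had 12 of 23 at new peaks, 9 higher and 1 lower, and 18 higher and 2 lower in the whole list. Celf4, an RNA-binding protein of neurons with 8 new peaks, rose from 2.38, 2.53, 3.36 and 3.3 TPM to 17.3, 17.1, 16.2 and 14.6 TPM (2.16 ± 0.10, limma adjusted p = 1.7e-08). Celf5 rose from 8.5 ± 1.73 to 26.1 ± 1.98 TPM (SD, n = 4; 1.53 ± 0.12, limma adjusted p = 9.1e-07). Gap43, a growth cone protein, was the one that fell, from 622 ± 34.3 to 500 ± 22.3 TPM (SD, n = 4; -0.31 ± 0.04, limma adjusted p = 1.0e-04). Of the REST-repressed neuroendocrine list only 3 of 17 tested members had a new peak, Cdk5r2, Celf4 and Unc13a. All 3 were higher, as were 15 of the 17 members of the list, most of them without a new peak. Cdk5r2 had 0.46 to 0.987 TPM in the controls, so it passed the filter through its treated libraries alone. The lists share members (Celf4 stands in both).

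Interferon response and antigen presentation genes had 9 of 20 tested members at new peaks, 8 higher and none lower with crotonate, and 9 higher with MS-275. Over all 20 members 16 were higher with crotonate and 20 with MS-275, and none lower. Of the 9, Rsad2 and Nlrc5 had 0.466 ± 0.162 and 0.31 ± 0.19 TPM in the controls (SD, n = 4). They passed the filter through treated libraries alone. H2-K1, a class I major histocompatibility protein, had a new peak of 707 bp at its start (chr17:33999489-34000195) and rose from 48, 66.4, 58.7 and 69.7 TPM to 175, 168, 155 and 162 TPM (1.44 ± 0.10, limma adjusted p = 3.0e-07). H2-D1 rose from 21.2 ± 1.37 to 51.7 ± 3.93 TPM (SD, n = 4; 1.25 ± 0.06, limma adjusted p = 2.1e-08). The 2 genes are close paralogs, and how reads were shared between them is not given in the sources used here. The peptide transporter Tap1 and the immunoproteasome subunit Psmb9 lie next to each other and share 1 new peak (chr17:34187722-34187927), so their 2 rises (0.89 ± 0.10 and 1.05 ± 0.19) do not stand for 2 peaks. Of the imprinted genes 5 of 24 tested had a new peak, 4 higher and none lower, against 18 higher and none lower among all 24. Asb4, among the 4, had 0.206 to 0.599 TPM in the controls and passed the filter through treated libraries alone. Zdbf2 rose from 2.9, 4.76, 2.88 and 2.9 TPM to 6.54, 8.2, 8.64 and 6.84 TPM (0.99 ± 0.13, limma adjusted p = 6.6e-05).

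Cell cycle genes had almost no new peaks. None of 30 tested G2/M genes had one, and of 28 tested G1/S genes only the replication genes Mcm6 (-0.39 ± 0.05) and Pole (-0.58 ± 0.08) did, both lower with crotonate, as were 26 of the 28 members and 29 of the 30 G2/M genes. Cholesterol synthesis genes at new peaks, 4 of 23 tested, were lower in 3 cases and higher in none, with a median of -0.39. Of all 23 members 19 were lower and none higher, with a median of -0.45. Mvd fell from 97.3 ± 7.15 to 63.6 ± 6.32 TPM (SD, n = 4; -0.61 ± 0.08, limma adjusted p = 7.8e-05), and Cyp51 from 218 ± 12 to 150 ± 16 TPM (SD, n = 4; -0.55 ± 0.10, limma adjusted p = 8.5e-04). Each of the 4 had another crotonate Kcr peak as well.

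The list of fatty acid oxidation and crotonyl-CoA enzymes, which also holds the carrier Ucp2, had 5 of 24 tested genes at new peaks. Of these genes 4 were higher and 1 lower, and 15 were higher and 5 lower among all 24. Ucp2, a mitochondrial carrier that lowers the coupling of respiration, had the largest change among the 5. It had 11, 7.72, 7.66 and 9.82 TPM in the controls, 62.3, 76.8, 59.8 and 63.2 with crotonate (2.74 ± 0.12, limma adjusted p = 8.8e-09) and 126, 155, 121 and 127 with MS-275, again higher than with crotonate (1.00 ± 0.12, limma adjusted p = 2.4e-05). Acss2, which makes acetyl-CoA from acetate and can make crotonyl-CoA from crotonate, fell from 79.5 ± 6.94 to 64.2 ± 4.85 TPM with crotonate (SD, n = 4; -0.30 ± 0.09, limma adjusted p = 0.0129) and was at 79.5 ± 9.6 TPM with MS-275. Cdyl2, a relative of the crotonyl-CoA hydratase Cdyl, rose from 2.16 ± 0.26 to 4.74 ± 0.428 TPM (SD, n = 4; 0.86 ± 0.10, limma adjusted p = 2.0e-05). Of the writers, erasers and readers of acyl-lysine 9 of 24 had a new peak, and of these none was higher and 2 were lower, Brd3 (-0.41 ± 0.05) and Sirt1 (-0.34 ± 0.11), where the whole list had 4 higher and 5 lower.

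Radial glia and neural stem cell genes had 7 of 25 tested members at new peaks, 2 higher and 2 lower, and 4 higher and 3 lower among all 25. Prom1, a membrane protein of stem cells, rose from 6.98, 10.1, 7.93 and 9.06 TPM to 24.9, 28.1, 28.8 and 26.5 TPM with crotonate (1.57 ± 0.10, limma adjusted p = 1.4e-07), above its 11.6 to 13.7 TPM with MS-275. Nes, the intermediate filament of stem cells, fell from 346, 368, 396 and 358 TPM to 226, 262, 277 and 228 TPM (-0.57 ± 0.08, limma adjusted p = 6.3e-05). Lfng, which modifies Notch receptors, rose from 176 ± 15.9 to 203 ± 12.5 TPM (SD, n = 4; 0.21 ± 0.07, limma adjusted p = 0.0178), a call lost with median-of-ratios scaling (0.10, limma adjusted p = 0.214) and without control replicate 1 or 3. Astrocyte markers had 7 of 11 at new peaks, 1 higher and 2 lower, and 4 higher and 2 lower in all. Aqp4, the astrocyte water channel, rose from 5.75 ± 1.05 to 14 ± 2.41 TPM (SD, n = 4; 1.15 ± 0.14, limma adjusted p = 3.7e-05), while Aldoc and the bicarbonate transporter Slc4a4 (-0.55 ± 0.17, limma adjusted p = 0.0163) were lower. The Slc4a4 call was lost without crotonate replicate 2 (limma adjusted p = 0.0518). Of the oligodendrocyte lineage markers 5 of 9 had a new peak, 2 of them higher, against 4 higher and none lower among all 9. Only 1 of the 50 developmental transcription factors listed had any new peak, and none of the 5 tested did.

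The genes with the most new peaks differed in their RNA. Gse1, a coregulator of transcription, had the most, 17 new peaks beside 16 other crotonate Kcr peaks over chr8:120228501-120581383. Its level was 16.1, 17, 17.4 and 18.7 TPM in the controls and 22.7, 21.9, 22.5 and 25.5 with crotonate (0.40 ± 0.07, limma adjusted p = 3.0e-04), and 15 ± 0.876 with MS-275 (SD, n = 4). Of the other 9 genes with the most new peaks, Celf4, the cell adhesion gene Dscaml1 (0.64 ± 0.13) and the recombination gene Rad51b (0.47 ± 0.12) were higher, and Pou2f2, 2610035D17Rik and Arhgap26 did not pass the test, with log2 differences of 0.22, 0.13 and 0.17. Arhgap26 passed with the replicate number as a block (limma adjusted p = 0.0356) and without crotonate replicate 4 (0.0251). With quantile normalization these 3 had negative values, and Dscaml1 and Rad51b were not called. Septin9 had 7 new peaks and is named without an RNA value. Ninj2, with 7 new peaks, was at 0 TPM in 3 of 4 controls and 3 of 4 crotonate libraries. Zmiz1os1, an antisense transcript for which the strand of counting is not given in the sources used here, had 0.332 ± 0.169 and 0.27 ± 0.0643 TPM (SD, n = 4). These 2 were under the level tested.

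Genes below 1 TPM in every control and rich in new peaks differed among themselves. Of the genes described here, Maml3 and Hif3a were tested and passed the filter on low values through their treated libraries alone, so that they had to differ, and their p-values are no support for a rise. Maml3, a Notch coactivator with 6 new peaks and no other crotonate Kcr, had 0.39, 0.304, 0.507 and 0.451 TPM in the controls and 1.62, 1.23, 1.38 and 1.13 with crotonate (0.73 ± 0.12, limma adjusted p = 3.6e-04), and all 6 peaks lay in forebrain H3K9ac. With quantile normalization its call was lost (0.29, limma adjusted p = 0.0702). Hif3a, of the hypoxia-inducible factor family, had 5 new peaks, none of them in a forebrain list. It had 0.507, 0.618, 0.381 and 0.894 TPM in the controls and 6.79, 2.78, 2.89 and 2.95 with crotonate (1.54 ± 0.21, limma adjusted p = 7.3e-05), with replicate 1 above the others, and 7.15 to 8.96 with MS-275. Asic4, a member of the acid-sensing channel family, had 5 new peaks, and its crotonate libraries (0.108 to 0.991 TPM) spanned its control range.

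In the explants the share of called genes at new peaks was near the background. By the authors' deposited table, whose direction is known from its name alone, 12.6% of 3530 genes at new peaks were higher with crotonate and 11.1% lower, against 10.9% and 10% of the 13483 genes with a position. For the 1376 genes with new Kcr only the authors' deposited table gave 10.5% higher and 8.94% lower. The explants were of another strain, and their poly(A) RNA came from whole forebrain tissue. Of the 51 named genes with a value in the authors' deposited table, 13 were called there, and 12 of these were also called with crotonate in NSPCs, 9 in the opposite direction and 3 in the same. The same split over all genes called in both was not counted, so these counts are no result about genes at new peaks. The authors' deposited table had the largest opposite changes in Lfng (-0.87) and Asb4 (-0.87), which were lower in explants and higher in NSPCs. Asb4 lay below 1 TPM in every NSPC control, and its NSPC call was lost with quantile normalization (0.15, limma adjusted p = 0.487). The NSPC call of Lfng was lost with median-of-ratios scaling (0.10, limma adjusted p = 0.214). Aldoc was higher in the explants (0.30). Prom1, Celf4, Robo1 and Ly6h were also lower in the authors' deposited table, and Hif3a was higher in both. For Tpm2 the authors' deposited table gave a log2 change of -0.71 (adjusted p = 0.0878), and for Rtn4rl2 one of -0.02 (adjusted p = 0.938).

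Of the stem cell markers in the 12 NSPC libraries, Sox2 lay between 247 and 295 TPM, Vim between 3250 and 6160, Fabp7 between 4550 and 7170 and Pax6, lower than these, between 12 and 29.1. Markers of other cell types moved with treatment in part. The 12 oligodendrocyte lineage markers summed to 1780 to 1980 TPM in control cells; the crotonate libraries had 1950 to 2230 and the MS-275 libraries 2960 to 3250, and the 14 endothelial and mural markers to 22 to 26.9, 30.6 to 36.1 and 68.4 to 83.8. Cspg4 stands in both of these lists, with means of 17, 15.7 and 29.9 TPM. It makes up a large part of the endothelial and mural sums, which are thus not independent of the oligodendrocyte lineage sums. The 12 astrocyte markers summed to 309 to 471, 377 to 538 and 368 to 506, with Gjb6 at 0 throughout. The 15 microglia and blood markers summed to 8.14 TPM at most, with none tested and the globins Hbb-bs and Hbb-bt at 0. The part of these cell types in the RNA differences was not tested.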

How the data were processed

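The series holds 30 samples, of which RNA of 12 NSPC libraries, 6 NSPC and 2 forebrain ChIP lists, forebrain RNA and the explant comparison were used; the IgG, input and bisulfite samples were not used here. The submitters' processing notes name Salmon 1.0.0, DESeq2 1.26.0, Bowtie2 2.3.5.1 and MACS2 2.2.5 and the build GRCm38. The NSPC peak lists as deposited hold positions alone, without a score; thresholds and control library are not given in the sources used here. The forebrain lists the authors deposited give a score, a fold enrichment (ratio) and −log10 p and q values per peak, of which only fold was used. RNA levels are TPM by the authors, on a scale without depth, so that sequencing depth and counting error are unknown. The authors' deposited explant table gives a mean of normalized counts (signal), log2 fold changes and p-values, with no values per library; adjusted p below 1 counted as computed.

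Peaks were intersected at 1 bp with overlap counting written in Python, which was compared with bedtools 2.31.1 on simulated peaks. They were assigned to RefSeq genes within 1 kb by symbol (92.7% of tested genes had a position). Promoter sequences are from RefSeq (GRCm38.p6). Genes that reached 1 TPM in no fewer than 4 of 12 libraries were fitted with limma 3.58.1 in R 4.3.3 on log2(TPM + 1) over the 3 NSPC groups together, with Benjamini-Hochberg adjustment over all genes; tables used Python 3.11.15 and pandas 2.3.3. The scripts were tested on simulated data. Replicate numbers come from the sample titles. Deviations of same-numbered libraries correlated at 0.119 to 0.241 in all 12 pairs and those of other pairs at -0.197 to 0.0993 (36 pairs), so the numbers pair the samples. Alternatives were another pseudocount, no filter, median-of-ratios and quantile scaling, the replicate block, each library left out, other overlaps and distances; a start position and a minimum level in every control were added after seeing the data.

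Named genes were the 10 per direction with the largest called crotonate difference, without overlap of libraries, with a mean of at least 5 TPM in the group with the higher level, predicted genes left out; the 10 with the most new peaks; those at the 5 widest peaks; up to 3 from each list with at least 3 changed members; and the 5 with the most new peaks below 1 TPM in every control. The genes from the lists were the called members with the smallest limma p for crotonate against control in each direction. Other list members were named after their values were seen. One gene that the rule names is not reported here. The members and the lists were chosen with earlier results of these data known.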

Additional observations from a re-analysis of the deposited data

Results flagged for a closer look

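In 15 of 171 groups of 4 libraries looked at among the named genes, 1 library stood apart from the other 3 by the gap to its nearest neighbour relative to the whole range (Dixon's criterion). Chance alone marks about 1 group in 20. All values are TPM. With MS-275, Celf4 was at 14.3 in replicate 4 against 17.3 to 17.8 in the others, Robo1 at 14 in replicate 4 against 16.6 to 16.7, and Gap43 at 651 in replicate 1 against 692 to 699. Mthfd2 was at 17.4 in MS-275 replicate 1 against 20.3 to 20.9, Cthrc1 at 2.97 in replicate 1 against 4.69 to 4.87, and Gse1 at 16.3 in replicate 2 against 14.5 to 14.7. With crotonate, Cdyl2 was at 4.11 in replicate 4 against 4.88 to 5.02, Arhgap26 at 10.3 in replicate 4 against 12.4 to 12.5, and Sntb1 at 1.93 in replicate 4 against 2.51 to 2.6. Gcat was at 17.8 in crotonate replicate 2 against 20.9 to 21.5, and Hif3a at 6.79 in replicate 1 against 2.78 to 2.95. In the controls, Zdbf2 was at 4.76 in replicate 2 against 2.88 to 2.9, and Grik4 at 1.93 in replicate 3 against 2.66 to 2.76. Ninj2 was at 0.139 in control replicate 3 and 0.157 in crotonate replicate 2 and at 0 in the other libraries of these groups.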

How the results depend on the processing

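Depth is unknown and each ChIP list is 1 library, so membership of a peak cannot be weighed against replicate error. Of 455 recomputed summary values 376 stayed within their limits and 79 moved. For genes at new peaks, crotonate against control, 31.7% were higher with quantile normalization; the lower share was 20% with median-of-ratios scaling, 18.6% with quantile normalization, 7.15% for genes without other Kcr and 6.96% for peaks at least 1 kb from control peaks. The median was 0.27 with a pseudocount of 0.1, 0.19 without a filter, 0.14 with median-of-ratios and 0.07 with quantile scaling, 0.29 for the gene body alone, 0.22 within 5 kb, 0.48 without other Kcr, 0.45 at least 1 kb from control peaks and 0.18 for genes with at least 1 TPM in every control. For genes with new Kcr only, 38.3% were higher with quantile normalization, and the lower share was 4.36% without a filter, 12.6% with median-of-ratios and 13.8% with quantile scaling; the median was 0.64, 0.30, 0.40 and 0.17 with the pseudocount, no filter, median-of-ratios and quantile scaling, 0.58 at least 1 kb from control peaks and 0.31 at 1 TPM. With MS-275 the lower share at new peaks was 11.7% without other Kcr and 11.4% at least 1 kb away, and the median was 0.35, 0.24, 0.24 and 0.14 under the same 4 settings, 0.36 for the gene body, 0.28 within 5 kb, 0.59 without other Kcr, 0.55 at least 1 kb away and 0.21 at 1 TPM. For new Kcr only with MS-275 the lower share was 7.74% without a filter and 18.3% with quantile normalization, and the median 0.76, 0.35, 0.53 and 0.29, 0.56 within 5 kb and at gene starts, 0.72 at least 1 kb away and 0.37 at 1 TPM. For MS-275 against crotonate the median was 0.07 with median-of-ratios, 0.06 with quantile scaling, 0.07 without other Kcr, 0.09 at least 1 kb away, 0.01 at starts and 0.00 at 1 TPM; for new Kcr only the lower share was 11.6% and the median 0.04 without a filter, and the median was 0.10 with median-of-ratios, 0.12 at least 1 kb away and 0.01 at 1 TPM. Leaving out 1 library at a time, the higher share with crotonate was 44.9% to 48.4% at new peaks and 55.6% to 58.8% with new Kcr only, whose median was 0.46 to 0.50. The cause of these shifts was not tested.

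With the replicate number as a block, crotonate against control, 49.9% of genes at new peaks were higher and 12.4% lower, and 60.1% and 7.42% with new Kcr only. Apart from Sntb1, Arhgap26 and Aldoc, given with their values above, the block changed no call of a named gene against control, and none of MS-275 against crotonate for Mgarp, Emilin2, Ly6h, Epha4 and Ucp2, the genes for which that contrast was recomputed. The NSPC calls given elsewhere come from the fit without the block, unless the block is named. For the explants no paired analysis was possible, because only the authors' comparison was given and not the libraries.

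New peaks numbered 4470 at least 1 kb from control peaks and 314 at 500 bp or wider. Requiring an overlap of at least 50% of the peak gave 26.6% with crotonate Kac, 5.9% with MS-275 Kcr, 6.81% with MS-275 Kac, 43% with H3K9ac and 21.9% with H3K9cr; allowing a gap of up to 500 bp gave 55%, 16.6%, 19.5%, 56.1% and 35.3%; peaks of at least 500 bp gave 72.6%, 26.1%, 26.4%, 73.2% and 41.7%; peaks at least 1 kb from control peaks gave 40.5% with H3K9ac and 18% with H3K9cr. Genes at new peaks numbered 3221 at least 1 kb from control peaks.

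Of 2026 recomputed values of 54 named genes, 1971 kept direction and call, 27 lost the call, 12 gained it and 16 changed sign. With quantile normalization the sign changed, crotonate against control, for 2610035D17Rik (-0.33), Pou2f2 (-0.23), Arhgap26 (-0.07) and Sntb1 (-0.09), and MS-275 against control for Asb4 (-0.06), Cdyl2 (-0.26), Acss2 (0.07), Dscaml1 (-0.12), 2610035D17Rik (-0.40), Pou2f2 (-0.16) and Sntb1 (-0.43). Leaving out 1 library gave -0.07 to 0.07 for Acss2 with MS-275, whose sign changed to positive in 4 cases (0.01, 0.03, 0.03 and 0.07), and -0.06 (without control replicate 4) to 0.15 for Sntb1 with MS-275. The MS-275 calls of Cdyl2, Asb4 and Gse1 were lost without some single libraries.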
